A study of Mus musculus with 6 samples.

Results

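The integrin subunits and laminin chains were followed through 3 groups of cultured mouse liver progenitor-like cells (LPCs), proliferating cells grown out of adult liver. They were chosen by symbol: names that begin with Itga or Itgb, leaving out names that hold bp or bl (integrin-binding proteins and an integrin-like gene), and names made of Lama, Lamb or Lamc and a digit. This gave 38 of the 20573 gene symbols present in all 6 count tables, namely 27 integrin subunits (18 alpha and 9 beta) and 11 laminin chains. Each group held 2 RNA sequencing libraries, and all cells came from C57BL/6 mice of 6 to 8 weeks and were grown in Transition and Expansion Medium (TEM). The source of Hep_LPCs was hepatocytes, from ROSA26tdTomato mice that received AAV8-TBG-Cre, a viral vector with Cre under a hepatocyte promoter. NPC_LPCs were raised from the non-parenchymal fraction, which is the liver without its hepatocytes, and their mice were AlbCreERT/R26GFP, whose Cre is under the albumin promoter and needs tamoxifen, and the labels do not say whether it was given. Bec_LPCs came from WT mice, as intrahepatic bile duct pieces that were plated into matrigel, passaged and sorted, and the series text calls them Epcam+. Matrigel is itself a basement membrane extract rich in laminin, and the labels name it for Bec_LPCs alone. Cell source cannot be told apart from mouse line and virus between Hep_LPCs and NPC_LPCs, nor from genotype, matrix, passage, sort and table layout where Bec_LPCs are compared.

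Integrins are receptors that hold cells to the matrix around them. Each is a pair of 1 alpha and 1 beta subunit, and the pair sets the ligand: collagen, laminin, or proteins with the tripeptide RGD such as fibronectin. Laminins are trimers of an alpha, a beta and a gamma chain and form the backbone of the basement membrane, the sheet that underlies bile duct epithelium and that hepatocytes in the healthy liver largely lack.

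Total counts ran from 17575998 to 22985844 per library. Hep_LPCs replicate 2 stood apart in Y-linked transcripts: Ddx3y, an RNA helicase gene of the Y chromosome, had 1 read there and between 60.4 and 102 CPM (counts scaled to library size) in the other 5 libraries, so the main differences of Hep_LPCs are also given without that library. Whether the replicates of a group are different animals or cultures is not in the labels, and p-values therefore measure only the spread between these samples. In NPC_LPCs and Bec_LPCs that spread may be technical. The Hep_LPCs libraries differed in Ddx3y, Eif2s3y, Kdm5d and Uty (Kdm5d had 853 and 0 reads), so they were not repeats of the same RNA. Of 8 cholangiocyte (bile duct cell) markers, 3 were higher and 1 lower in Bec_LPCs than in NPC_LPCs (50%, beside 11.3% of all genes tested). Against Hep_LPCs 2 were higher (25%, beside 33.4%). Those 2 were Epcam and Cldn7, which were also among the 3 against NPC_LPCs. Epcam is the gene by which the series text describes Bec_LPCs. Cldn7 passed the low-count filter of the tests through Bec_LPCs alone, so that it tended to differ by the filter itself. Their sum ran from 3571 to 4224 CPM in Bec_LPCs, from 4911 to 10004 CPM in NPC_LPCs and from 2332 to 5031 CPM in Hep_LPCs, and Spp1 alone gave up to 9410 CPM of it in NPC_LPCs. Epcam was at 59.0 and 65.7 CPM in Bec_LPCs and at most 1.84 CPM elsewhere, and Krt7 at 298 and 365 CPM in Bec_LPCs, 1.501 and 17.7 CPM in NPC_LPCs, and 109 and 174 CPM in Hep_LPCs. The 8 hepatocyte markers summed to 105 to 128 CPM in Bec_LPCs, 29.2 to 51.4 CPM in NPC_LPCs and 257 to 265 CPM in Hep_LPCs, nearly all of it Hnf4a, a transcription factor (248 and 263 CPM in Hep_LPCs). Alb, albumin, was at most 2.40 CPM, and Cyp2e1 and Tat had 0 reads in all 3 groups. In bulk RNA, fewer cells of a type and less RNA per cell cannot be told apart.

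The most abundant receptor transcripts of all 3 groups were those of a laminin receptor, integrin alpha3 beta1. The groups differed around it. Bec_LPCs carried more transcript of Itgb1, Itga3, Itgav, Itga2, Lama4 and Lamb1 than Hep_LPCs, and more of Itga6 and Itgb4, the subunits of the hemidesmosome receptor, than NPC_LPCs. Hep_LPCs carried more Itgb6 and Itga7 than Bec_LPCs. Higher, lower and called are used of genes whose Benjamini-Hochberg adjusted p, over all genes tested with edgeR (quasi-likelihood test), was under 0.05. By that mark the differences of Itgb1, Itga3 and Itga2 from Hep_LPCs were not called without Hep_LPCs replicate 2. Fold changes are log2 values ± SE.

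In Bec_LPCs against Hep_LPCs, 11 of 32 tested members were higher and 3 lower (43.8% called), where 33.4% of the 12868 genes tested were called, 16.1% as higher and 17.2% as lower. In Bec_LPCs against NPC_LPCs, 5 of 32 were higher and none lower (15.6%), where 11.3% of 12868 genes were called, 4.88% as higher and 6.44% as lower. In Hep_LPCs against NPC_LPCs, none of 27 tested members was called by edgeR, where 0.795% of 12331 genes were called, 0.349% as higher and 0.446% as lower. The count in that comparison at an unadjusted p under 0.05 was 7 higher and 6 lower, where 22.2% of all genes tested passed that mark. DESeq2 called 7 members and limma-voom 0. The share of all genes that these tools called was not recorded, so their counts, here and below, cannot be set beside one. The median log2 fold change of tested members was 0.50 in Bec_LPCs against Hep_LPCs, 0.51 in Bec_LPCs against NPC_LPCs and -0.19 in Hep_LPCs against NPC_LPCs, and over all genes tested it was 0.03, 0.01 and 0.00. At an unadjusted p under 0.05 stood 18 members in Bec_LPCs against Hep_LPCs, where 47.3% of all genes did, and 11 in Bec_LPCs against NPC_LPCs, where 31.5% did.

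Groups that do not overlap, with both libraries of one above both of the other, were common among all genes. In Bec_LPCs against Hep_LPCs, 18 tested members lay wholly higher and 6 wholly lower, where 40.8% and 36.8% of all genes did. In Bec_LPCs against NPC_LPCs, 18 lay wholly higher and 2 wholly lower, where 37.0% and 33.0% did. In Hep_LPCs against NPC_LPCs, 9 lay wholly higher and 9 wholly lower, where 27.9% and 28.6% did. The tested members are not all members. In the fit of 6 libraries Itga8, Itga11, Itgad, Itgae, Itgal and Itgam were too low to test, and 6 of the 32 tested (Itgax, Itgb2l, Itgb8, Lama2, Itgb7 and Lamc3) had both libraries over the filter's minimum in 1 group alone, so that they tended to differ by the filter itself. Of the other 26, 7 were higher and 2 lower in Bec_LPCs against Hep_LPCs (34.6%), and 2 were higher in Bec_LPCs against NPC_LPCs (7.69%). The comparisons with Bec_LPCs share those libraries, and 3 members (Itgax, Itgb2l and Lama2) were called in both.

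The calls rest on both Bec_LPCs libraries. Without Bec_LPCs replicate 1 none of the 14 calls against Hep_LPCs was made, and without replicate 2 the count was 1 (Lama4). Against NPC_LPCs the count was 0 without either Bec_LPCs library, and 2 with the replicate number as a block (Itgb2l and Itgb4). Leaving out a library keeps 1 sample in an arm, which is then taken to vary like the other groups. Without Hep_LPCs replicate 2, 12 members were called against Hep_LPCs, among them 10 of the 14, and Itga2, Itga3, Itgb1 and Itgb7 were not.

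**Figure D1:**
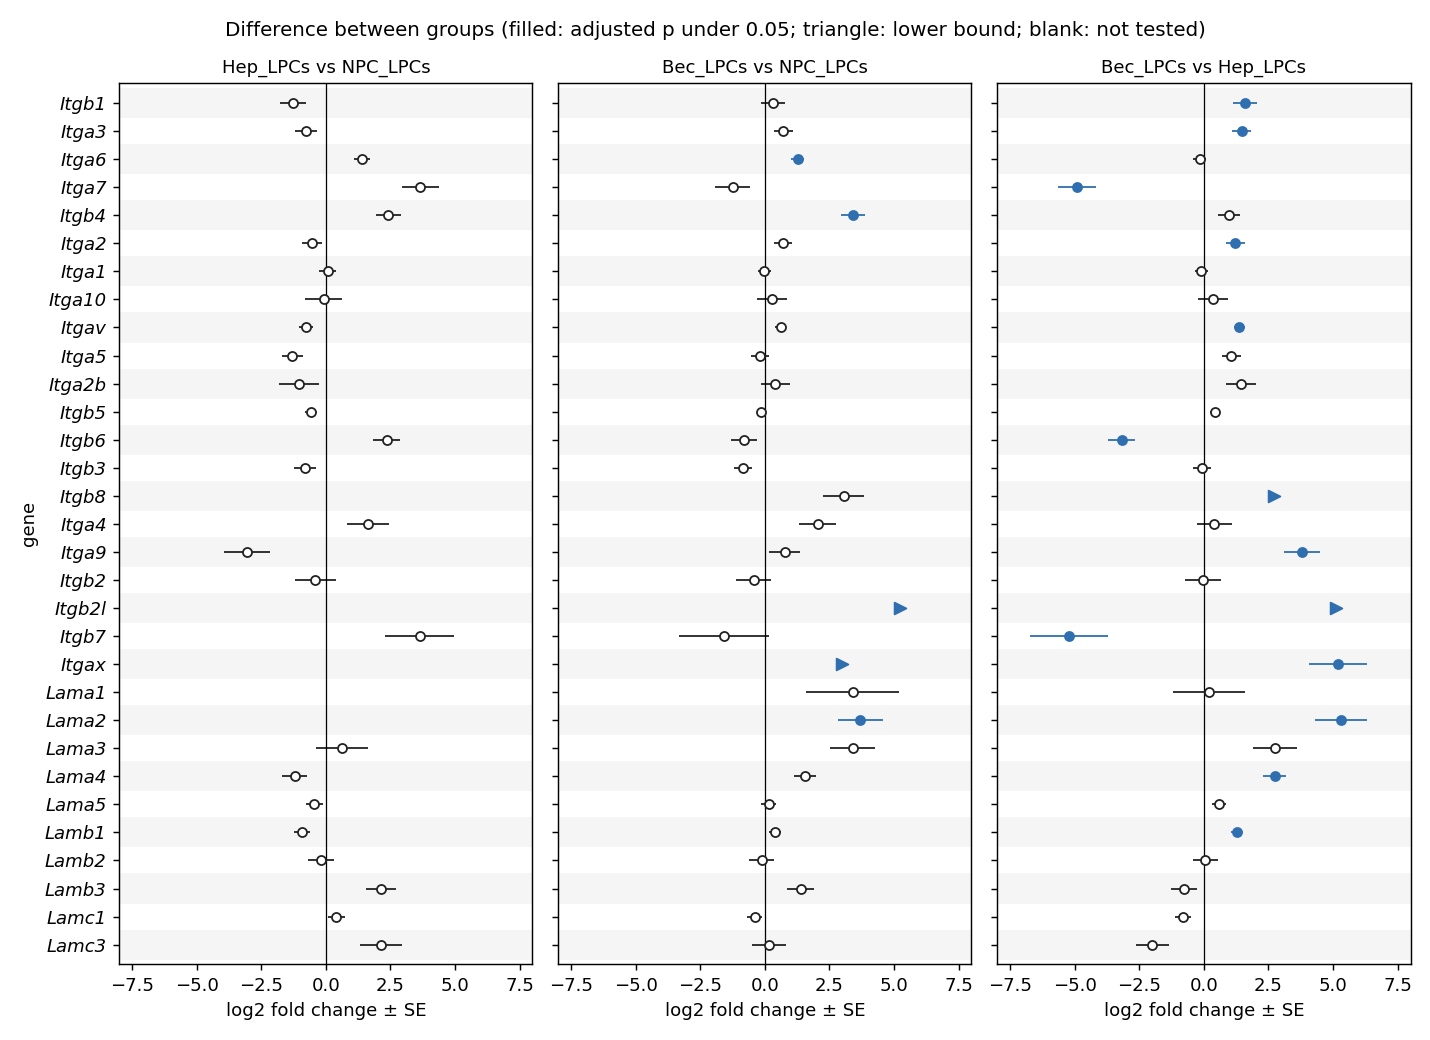
Log2 fold change ± SE of tested members in the 3 comparisons; filled symbols mark an adjusted p under 0.05, and triangles mark a lower bound for a gene with 0 reads in the second group. In the right panel 11 members lie to the right of 0 as filled symbols and 3 to the left (Itga7, Itgb6 and Itgb7), while no symbol is filled in the left panel.

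Itgb1 encodes the beta1 subunit, which pairs with most alpha subunits (chromosome 8, 128685654 to 128733200, GENCODE M21 on mm10). It was at 2443 and 2655 CPM in Bec_LPCs, 1098 and 2989 CPM in NPC_LPCs, and 755 and 949 CPM in Hep_LPCs. Both Bec_LPCs libraries lay above both Hep_LPCs libraries, and the NPC_LPCs pair spanned the Bec_LPCs values. Itgb1 was higher in Bec_LPCs than in Hep_LPCs by 1.58 ± 0.46 (adjusted p = 0.0456), a call that was lost without either Hep_LPCs library. Hep_LPCs differed from NPC_LPCs by -1.29 ± 0.50 (adjusted p = 0.210). Between Bec_LPCs and NPC_LPCs the difference was 0.32 ± 0.45 (adjusted p = 0.666), and it turned to -0.28 without NPC_LPCs replicate 1. Levels of different genes are compared as CPM per kilobase of annotated exon length. On that scale Itgb1 stood first among the 38 members in every group, at 668 ± 39.3 (SD, n = 2) in Bec_LPCs, 536 ± 351 in NPC_LPCs and 223 ± 35.8 in Hep_LPCs, and made up 76.5% to 95.4% of all beta subunit transcript in the 6 libraries.

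Itga3, whose product joins beta1 to bind laminins with an alpha3 or alpha5 chain, stood second in every group (chromosome 11, 95044474 to 95076801). It was at 1494 and 1629 CPM in Bec_LPCs, 640 and 1259 CPM in NPC_LPCs, and 678 and 452 CPM in Hep_LPCs. The Bec_LPCs libraries were the highest, and the other groups overlapped. The difference between Bec_LPCs and Hep_LPCs was 1.47 ± 0.37 (adjusted p = 0.0310), and it was 1.20 without Hep_LPCs replicate 2, where it was no longer called. The difference from NPC_LPCs was 0.72 ± 0.37 (adjusted p = 0.238).

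Promoter windows of 300 bases, from 250 bases before the start to 50 after it, were taken from RefSeq on GRCm38.p6, and 24 of the 38 members had an entry (27 windows). Those of Itgb1 and Itga3 are shown because they are the most abundant members and differ between groups. Capitals mark GGGCGG, the GC box read by SP1 and KLF factors, and GGAATG, the core read by TEAD factors. Both strands were searched, and the motifs do not overlap here. The Itgb1 window is chr8:128685404-128685703 on the plus strand, with 1 GC box and 1 TEAD core:
Itgb1 promoter: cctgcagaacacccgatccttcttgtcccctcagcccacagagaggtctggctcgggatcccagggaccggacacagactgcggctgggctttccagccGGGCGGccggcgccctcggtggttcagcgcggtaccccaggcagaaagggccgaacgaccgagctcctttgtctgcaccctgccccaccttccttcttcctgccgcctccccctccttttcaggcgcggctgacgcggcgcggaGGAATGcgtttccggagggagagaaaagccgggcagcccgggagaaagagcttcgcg
Itga3 has an entry for each of 2 starts, and the window of the outer start is chr11:95076665-95076964 on the minus strand, with 3 GC boxes:
Itga3 promoter: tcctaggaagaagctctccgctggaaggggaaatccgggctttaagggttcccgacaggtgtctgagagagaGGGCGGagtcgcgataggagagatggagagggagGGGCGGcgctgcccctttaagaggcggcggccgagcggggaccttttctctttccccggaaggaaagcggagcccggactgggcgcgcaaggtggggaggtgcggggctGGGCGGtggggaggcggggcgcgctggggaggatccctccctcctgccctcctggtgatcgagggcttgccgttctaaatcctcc
A GC box was present in 35.7% of the 32851 promoter windows of the genome table, and in 12 of the 27 windows of members. GGAATG was in 14.7% of all windows and in those of 3 members (Itga10, Itgb1 and Lamb3). TGANTCA, the AP-1 motif, was in 7.81% of all windows and in windows of Itga9, Itgax and, at the inner start not printed here, Itga3, and TATAAA was in 13.6% and in no window of a member. Such matches describe letters and are not binding sites.

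Itga6 and Itgb4 encode the partners of integrin alpha6 beta4, the laminin receptor that anchors hemidesmosomes to keratin filaments, and alpha6 also pairs with beta1. Itga6 (chromosome 2, 71745616 to 71858416) was at 250 and 242 CPM in Bec_LPCs, 330 and 223 CPM in Hep_LPCs, and 88.5 and 116 CPM in NPC_LPCs. Both NPC_LPCs libraries lay below the other 4. Itga6 was higher in Bec_LPCs than in NPC_LPCs by 1.27 ± 0.25 (adjusted p = 0.0339), a call lost without either NPC_LPCs library and with the replicate block. In Hep_LPCs the difference from NPC_LPCs was 1.41 ± 0.31 (adjusted p = 0.0891), or 1.67 without Hep_LPCs replicate 2, and between Bec_LPCs and Hep_LPCs it was -0.17 ± 0.24 (adjusted p = 0.616).

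Itgb4 (chromosome 11, 115974709 to 116008412) was at 318 and 315 CPM in Bec_LPCs, 116 and 204 CPM in Hep_LPCs, and 18.2 and 40.7 CPM in NPC_LPCs. The 3 groups did not overlap. It was 3.42 ± 0.47 higher in Bec_LPCs than in NPC_LPCs (adjusted p = 0.0151), and this call was kept in 12 of 14 alternative settings, the exceptions being the removal of either Bec_LPCs library. The difference of Hep_LPCs from NPC_LPCs was 2.42 ± 0.49 (adjusted p = 0.0807; called with the replicate block, with all 6 libraries in the fit and by DESeq2), and that of Bec_LPCs from Hep_LPCs was 0.98 ± 0.43 (adjusted p = 0.126). Without Hep_LPCs replicate 2 the Itgb4 difference of Hep_LPCs from NPC_LPCs was 1.95. Per kilobase, Itgb4 stood to Itga6 at 0.869 and 0.888 in Bec_LPCs, 0.141 and 0.240 in NPC_LPCs, and 0.241 and 0.626 in Hep_LPCs.

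Itga7, best known as the laminin receptor subunit of muscle, was most abundant in Hep_LPCs (chromosome 10, 128933818 to 128958282). It was at 37.6 and 45.5 CPM there, 5.43 and 1.17 CPM in NPC_LPCs, and 1.22 and 1.54 CPM (29 and 36 reads) in Bec_LPCs. The Hep_LPCs libraries were apart from the other 4. Itga7 was lower in Bec_LPCs than in Hep_LPCs by -4.90 ± 0.74 (adjusted p = 0.00821), and by -4.76 without Hep_LPCs replicate 2. The difference of Hep_LPCs from NPC_LPCs was 3.65 ± 0.72 (adjusted p = 0.0790), the smallest adjusted p of the members in that comparison, and it was called by DESeq2, with all 6 libraries in the fit and without NPC_LPCs replicate 1. It was 3.50 without Hep_LPCs replicate 2. Within the laminin-binding alpha subunits, per kilobase, Itga3 made up 83.2% and 84.7% in Bec_LPCs and 84.9% and 89.9% in NPC_LPCs, against 60.4% and 58.1% in Hep_LPCs, where Itga6 held 35.4% and 34.5% and Itga7 4.24% and 7.41%.

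**Figure D2:**
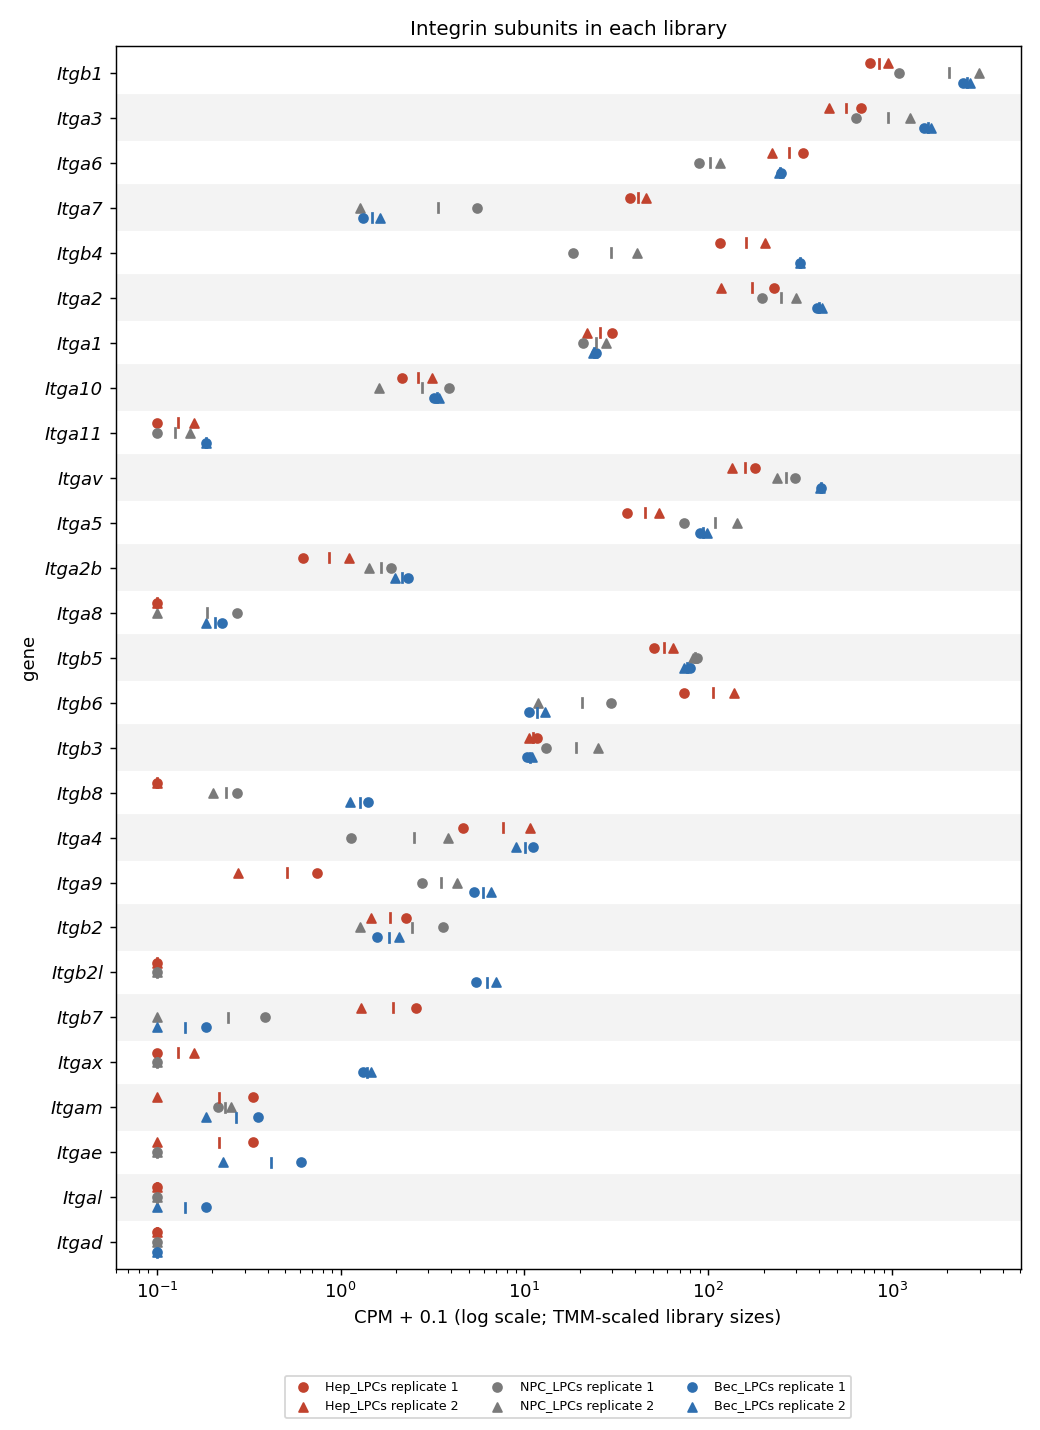
Level of each of the 27 integrin subunits in each library, as CPM on TMM-scaled library sizes plus 0.1 on a log axis; circles are replicate 1, triangles replicate 2, and short lines group means. Itgb1 and Itga3 lie at the right in all groups, Itga7 and Itgb6 are highest in Hep_LPCs, and the leukocyte subunits in the lower rows stay under 10 CPM.

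Among the collagen-binding alpha subunits, Itga2 was the main transcript, with 86.4% to 95.4% of their summed level per kilobase. Itga2 (chromosome 13, 114833081 to 114932100) was at 389 and 415 CPM in Bec_LPCs, 197 and 299 CPM in NPC_LPCs, and 229 and 118 CPM in Hep_LPCs. The Bec_LPCs libraries were the highest. The difference from Hep_LPCs was 1.21 ± 0.36 (adjusted p = 0.0488), close to the threshold, and the call was lost in 9 of 14 alternative settings, among them the removal of either Bec_LPCs library, of either NPC_LPCs library and of Hep_LPCs replicate 2, where the difference was 0.81. The difference from NPC_LPCs was 0.70 ± 0.36 (adjusted p = 0.245). Itga1, its neighbour on chromosome 13, ran from 20.7 to 29.7 CPM over the 6 libraries with overlap between all groups. Itga10, a subunit of cartilage, ran from 1.52 to 3.81 CPM, and Itga11, a subunit of fibroblasts, had at most 2 reads in a library.

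The RGD-binding alpha subunits were led by Itgav, which pairs with several beta subunits (chromosome 2, 83724397 to 83806916). It was at 410 and 408 CPM in Bec_LPCs, 296 and 237 CPM in NPC_LPCs, and 180 and 135 CPM in Hep_LPCs. The 3 groups did not overlap. Itgav was higher in Bec_LPCs than in Hep_LPCs by 1.38 ± 0.21 (adjusted p = 0.00866), and by 1.18 without Hep_LPCs replicate 2. The difference of Bec_LPCs from NPC_LPCs was 0.62 ± 0.21 (adjusted p = 0.110), and that of Hep_LPCs from NPC_LPCs was -0.78 ± 0.27 (adjusted p = 0.178), or -0.58 without Hep_LPCs replicate 2. Itga5, which with beta1 forms the main fibronectin receptor, was at 90.3 and 97.9 CPM in Bec_LPCs, 74.1 and 143 CPM in NPC_LPCs, and 36.2 and 53.7 CPM in Hep_LPCs. Hep_LPCs were the lowest, at -1.30 ± 0.40 from NPC_LPCs (adjusted p = 0.151), and Bec_LPCs differed from Hep_LPCs by 1.07 ± 0.36 (adjusted p = 0.0641). Without Hep_LPCs replicate 2 the Itga5 differences were -1.61 and 1.38. Itga2b, the platelet subunit, stayed at or under 2.24 CPM, and Itga8 had at most 3 reads in a library. Summed markers of platelets and megakaryocytes were under 1 CPM in each library.

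Of the 4 beta partners of alphav, Itgb6 was lower and Itgb8 higher in Bec_LPCs than in Hep_LPCs, and Itgb5 and Itgb3 were not called. Itgb8 had both libraries over the filter's minimum in Bec_LPCs alone, so that it tended to differ by the filter itself. Itgb5, which with alphav binds vitronectin, was at 79.7 and 74.1 CPM in Bec_LPCs, 86.4 and 82.7 CPM in NPC_LPCs, and 50.9 and 64.1 CPM in Hep_LPCs. No comparison of Itgb5 was called (adjusted p = 0.635 for Bec_LPCs against NPC_LPCs, 0.114 for Bec_LPCs against Hep_LPCs, which was 0.0380 without Hep_LPCs replicate 2, and 0.238 for Hep_LPCs against NPC_LPCs). Itgb6 is an epithelial subunit whose pairing with alphav binds and activates latent TGF-beta (chromosome 2, 60598292 to 60722643). It was at 74.0 and 138 CPM in Hep_LPCs, 29.4 and 11.7 CPM in NPC_LPCs, and 10.5 and 12.9 CPM in Bec_LPCs. Both Hep_LPCs libraries lay above the other 4, which overlapped. Itgb6 was lower in Bec_LPCs than in Hep_LPCs by -3.18 ± 0.53 (adjusted p = 0.0107), and by -2.67 without Hep_LPCs replicate 2. The difference of Hep_LPCs from NPC_LPCs was 2.35 ± 0.53 (adjusted p = 0.0943), called by DESeq2, with all 6 libraries in the fit and without NPC_LPCs replicate 1, and it was 1.84 without Hep_LPCs replicate 2.

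Per kilobase, Itgb6 made up 41.8% and 52.3% of the alphav partners in Hep_LPCs, against 6.29% to 14.9% in the other 4 libraries. Itgb5 made up 51.4% and 43.5% in Hep_LPCs and 78.1% to 86.5% in the others. The ratio of Itgb6 to Itgb5 was 0.813 and 1.20 in Hep_LPCs. In the authors' FPKM (fragments scaled by gene length and depth, deposited for NPC_LPCs and Hep_LPCs), Itgb6 and Itgb5 were at 11.1 and 13.8 in Hep_LPCs replicate 1 and at 20.7 and 18.1 in replicate 2, against 4.08 and 24.2, and 1.82 and 23.004, in the NPC_LPCs libraries. Itgb3, known from platelets and vessels, was at 10.3 and 10.9 CPM in Bec_LPCs, 12.99 and 25.2 CPM in NPC_LPCs, and 11.6 and 10.5 CPM in Hep_LPCs, with no call. Itgb8, which also activates TGF-beta, had 31 and 24 reads in Bec_LPCs, 3 and 2 in NPC_LPCs, and 0 in Hep_LPCs. It was at least 6.61-fold higher in Bec_LPCs than in Hep_LPCs, with 0 reads set to the floor of 3 in each library (adjusted p = 0.0147, and 0.0298 without Hep_LPCs replicate 2). Itgb6 also has entries for 2 starts, and the window of the outer one, shown because Itgb6 differed between Hep_LPCs and Bec_LPCs, is chr2:60722554-60722853 on the minus strand. Neither window holds any of the 4 motifs searched, so there are no capitals:
Itgb6 promoter: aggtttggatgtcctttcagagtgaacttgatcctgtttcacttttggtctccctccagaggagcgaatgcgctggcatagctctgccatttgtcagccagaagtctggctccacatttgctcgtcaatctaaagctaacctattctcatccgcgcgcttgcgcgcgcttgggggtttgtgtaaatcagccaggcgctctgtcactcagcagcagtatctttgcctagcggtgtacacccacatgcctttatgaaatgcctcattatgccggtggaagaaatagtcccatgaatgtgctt

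Itga4 and Itga9 form a pair of related alpha subunits that bind VCAM1, fibronectin and, for alpha9, tenascin C. Itga9 was at 5.19 and 6.47 CPM in Bec_LPCs, 2.66 and 4.22 CPM in NPC_LPCs, and 0.644 and 0.178 CPM (11 and 3 reads) in Hep_LPCs. The groups did not overlap. Itga9 was higher in Bec_LPCs than in Hep_LPCs by 3.80 ± 0.70 (adjusted p = 0.0133; 3.17 without Hep_LPCs replicate 2), and its difference in Hep_LPCs from NPC_LPCs was -3.07 ± 0.88 (adjusted p = 0.137; -2.43 without that library). Its ligand gene Tnc, tenascin C, was at 1329 and 1570 CPM in Bec_LPCs, 2161 and 1832 CPM in NPC_LPCs, and 57.4 and 87.3 CPM in Hep_LPCs. Itga4 was at 11.01 and 8.92 CPM in Bec_LPCs, 1.04 and 3.76 CPM in NPC_LPCs, and 4.51 and 10.6 CPM in Hep_LPCs, with no call.

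Subunits of leukocyte integrins were low in all libraries. Itgad, Itgae, Itgal and Itgam had between 0 and 12 reads in a library, and 70.0% of the exonic length of Itgam is shared with Gm49368. Itgb2, the common beta subunit of leukocytes, ran from 1.17 to 3.52 CPM with overlap between groups. Itgb2l, a gene related to Itgb2, had 127 and 162 reads in Bec_LPCs and 0 in the other 4 libraries. It was thus at least 37.8-fold higher in Bec_LPCs than in NPC_LPCs (adjusted p = 0.0217) and at least 34.8-fold higher than in Hep_LPCs (adjusted p = 0.00936). Itgax, the CD11c subunit of dendritic cells and macrophages, had 29 and 32 reads in Bec_LPCs, 0 in NPC_LPCs, and 0 and 1 in Hep_LPCs. It was at least 7.97-fold higher in Bec_LPCs than in NPC_LPCs (adjusted p = 0.0394), and its ratio of summed reads to Hep_LPCs was 44.0 (95% exact binomial interval 7.61 to 1767, counting error only; adjusted p = 0.0267). Both Itgax calls were lost with the replicate block, that against NPC_LPCs also without either NPC_LPCs library, and that against Hep_LPCs also without Hep_LPCs replicate 1. Itgb7, a beta subunit of lymphocytes, had 42 and 20 reads in Hep_LPCs, 5 and 0 in NPC_LPCs, and 2 and 0 in Bec_LPCs. Its ratio of summed reads in Hep_LPCs to Bec_LPCs was 43.0 (interval 11.4 to 363; adjusted p = 0.0441), a call lost without either Hep_LPCs library. Itgb2l and Itgax had both libraries over the filter's minimum in Bec_LPCs alone, and Itgb7 in Hep_LPCs alone. These genes therefore tended to differ by the filter itself.

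The 10 leukocyte markers summed to 23.97 and 27.4 CPM in Bec_LPCs, where 8 had reads. The sums ran from 22.1 to 87.0 CPM in NPC_LPCs (6 with reads) and from 16.3 to 26.5 CPM in Hep_LPCs (5 with reads). Ptprc, the CD45 gene common to leukocytes, was at 0.59 and 0.77 CPM in Bec_LPCs (14 and 18 reads) and at most 0.254 CPM elsewhere. Tyrobp had 9 and 17 reads in Bec_LPCs and 0 elsewhere, and Spi1 had 6 and 8 there and at most 3 elsewhere. Csf1r, at 1.01 and 2.19 CPM in Bec_LPCs, was at 3.22 and 1.96 CPM in Hep_LPCs. Cd3e, which defines T cells, had 0 reads in all 6 libraries. Lyz2, a marker of macrophages, was at 12.2 and 14.4 CPM in Bec_LPCs and at most 0.64 CPM elsewhere, whereas Cd68, another, was at 9.12 and 8.66 CPM in Bec_LPCs, 83.9 and 20.9 CPM in NPC_LPCs, and 22.8 and 14.002 CPM in Hep_LPCs. The part of such cells in the values of Itgax, Itgb2l and Itgb7 was not tested. The Bec_LPCs tables differ in layout from the others, and the part of counting differences in genes with reads in 1 group alone was not tested either. In GENCODE M21 Itgb2l, Itgax and Itgb7 share no exonic length with another protein-coding gene, but the annotation behind the deposited counts is not given.

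Among the laminin alpha chains, Lama5, the chain of most adult epithelial basement membranes, was dominant (chromosome 2, 180176373 to 180225859). It was at 680 and 650 CPM in Bec_LPCs, 762 and 437 CPM in NPC_LPCs, and 404 and 485 CPM in Hep_LPCs. Both Bec_LPCs libraries lay above both Hep_LPCs libraries, but the difference of 0.58 ± 0.29 was not called (adjusted p = 0.162; 0.72 without Hep_LPCs replicate 2). Lama5 held 84.2% to 96.2% of the alpha chain level per kilobase. Lama4, a chain of vessels and mesenchyme, was at 59.9 and 48.7 CPM in Bec_LPCs, 26.2 and 11.1 CPM in NPC_LPCs, and 7.49 and 8.78 CPM in Hep_LPCs (chromosome 10, 38965515 to 39110188). The 3 groups did not overlap, and Lama4 was higher in Bec_LPCs than in Hep_LPCs by 2.74 ± 0.44 (adjusted p = 0.00935; 2.86 without Hep_LPCs replicate 2), while its difference from NPC_LPCs was 1.54 ± 0.42 (adjusted p = 0.0670). It held 13.97% and 12.1% of the alpha chains per kilobase in Bec_LPCs, against 3.28% to 6.06% in the other libraries.

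Lama2, the chain of muscle and nerve basement membranes, had 63 and 57 reads in Bec_LPCs (2.66 and 2.44 CPM), 4 and 3 in NPC_LPCs, and 2 and 0 in Hep_LPCs. Lama2 had both libraries over the filter's minimum in Bec_LPCs alone, so that it tended to differ by the filter itself. It was higher in Bec_LPCs than in NPC_LPCs by 3.70 ± 0.87 (adjusted p = 0.0491), a call lost in 7 of 14 alternative settings, among them the replicate block and the removal of any Bec_LPCs or NPC_LPCs library. Its ratio of summed reads to Hep_LPCs was 43.3 (95% interval 11.7 to 362; adjusted p = 0.0145, and 0.0244 without Hep_LPCs replicate 2). Lama3, the alpha chain of laminin-332, the ligand of hemidesmosomes, was at 10.2 and 14.2 CPM in Bec_LPCs, 0.982 and 1.32 CPM in NPC_LPCs, and 0.468 and 3.14 CPM in Hep_LPCs. Bec_LPCs lay above the other 4 libraries, at 3.40 ± 0.86 from NPC_LPCs (adjusted p = 0.0602) and 2.76 ± 0.84 from Hep_LPCs (adjusted p = 0.0505), neither of them called. Without Hep_LPCs replicate 2 the difference of Lama3 from Hep_LPCs was 4.69 and was called (adjusted p = 0.0118). Lama1, an embryonic chain, had 22 and 8 reads in Bec_LPCs, 19 and 0 in Hep_LPCs, and 1 and 1 in NPC_LPCs.

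Markers of stellate cells and fibroblasts were also measured: 4 of 7 tested (57.1%) were higher in Bec_LPCs in each comparison and none lower, where 11.3% of all genes were called against NPC_LPCs and 33.4% against Hep_LPCs. Acta2, Col3a1 and Pdgfrb had both libraries over the filter's minimum in Bec_LPCs alone, so that they tended to differ by the filter itself. Acta2 and Pdgfrb were among the calls in both comparisons, and Col3a1 among those against Hep_LPCs. The share of 57.1% is therefore no measure of these markers as a set. The 9 markers summed to 171 and 199 CPM in Bec_LPCs, from 6.06 to 17.2 CPM in NPC_LPCs and from 10.1 to 15.5 CPM in Hep_LPCs. Of the 9, 8 had reads in Bec_LPCs, 8 in NPC_LPCs and 6 in Hep_LPCs, and Lrat, which defines quiescent stellate cells, had 0 reads in all libraries. Acta2, the smooth muscle actin of activated stellate cells, was at 77.6 and 94.1 CPM in Bec_LPCs and at most 2.34 CPM elsewhere, and Col1a1 at 63.7 and 76.9 CPM against at most 12.1 CPM. Pdgfrb was at 4.43 and 5.36 CPM in Bec_LPCs and at most 0.06 CPM elsewhere. Pdgfra, Dcn and Reln were not highest in Bec_LPCs alone: Reln was at 7.30 and 4.33 CPM there and 9.25 and 5.70 CPM in Hep_LPCs, and the other two were at most 1.501 CPM in any library. Endothelial markers, which cells with Lama4 could also carry, summed to 5.57 to 6.13 CPM in Bec_LPCs, 7.97 to 11.8 CPM in NPC_LPCs and 13.8 to 18.8 CPM in Hep_LPCs. The part of mesenchymal or endothelial cells in the levels of Lama2, Lama4 and Itga9 was not tested.

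Lamb1, the common beta chain, was at 575 and 603 CPM in Bec_LPCs, 350 and 549 CPM in NPC_LPCs, and 251 and 233 CPM in Hep_LPCs (chromosome 12, 31265234 to 31329644). The 3 groups did not overlap. Lamb1 was higher in Bec_LPCs than in Hep_LPCs by 1.28 ± 0.24 (adjusted p = 0.0145; 1.23 without Hep_LPCs replicate 2), and its difference from NPC_LPCs was 0.39 ± 0.24 (adjusted p = 0.320). Lamb2, the beta chain of kidney and synapse, was between 97.6 and 108 CPM in Bec_LPCs and Hep_LPCs, and at 169 and 56.1 CPM in NPC_LPCs. Lamb3, the beta chain of laminin-332, was at 16.9 and 51.4 CPM in Hep_LPCs, 18.5 and 21.6 CPM in Bec_LPCs, and 9.01 and 6.40 CPM in NPC_LPCs. Both NPC_LPCs libraries were the lowest, at a difference of 2.13 ± 0.58 from Hep_LPCs (adjusted p = 0.122) and of 1.38 ± 0.53 from Bec_LPCs (adjusted p = 0.142), and without Hep_LPCs replicate 2 the first was 1.11.

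Lamc1, the gamma chain of most laminins, was at 272 and 228 CPM in Bec_LPCs, 427 and 234 CPM in NPC_LPCs, and 472 and 412 CPM in Hep_LPCs. The difference of Bec_LPCs from Hep_LPCs was -0.82 ± 0.30 (adjusted p = 0.0847; -0.91 without Hep_LPCs replicate 2). Per kilobase, Lamb1 stood to Lamc1 at 2.76 and 3.44 in Bec_LPCs, 1.07 and 3.06 in NPC_LPCs, and 0.694 and 0.740 in Hep_LPCs. Lamc3 stayed at or under 2.61 CPM.

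**Figure D3:**
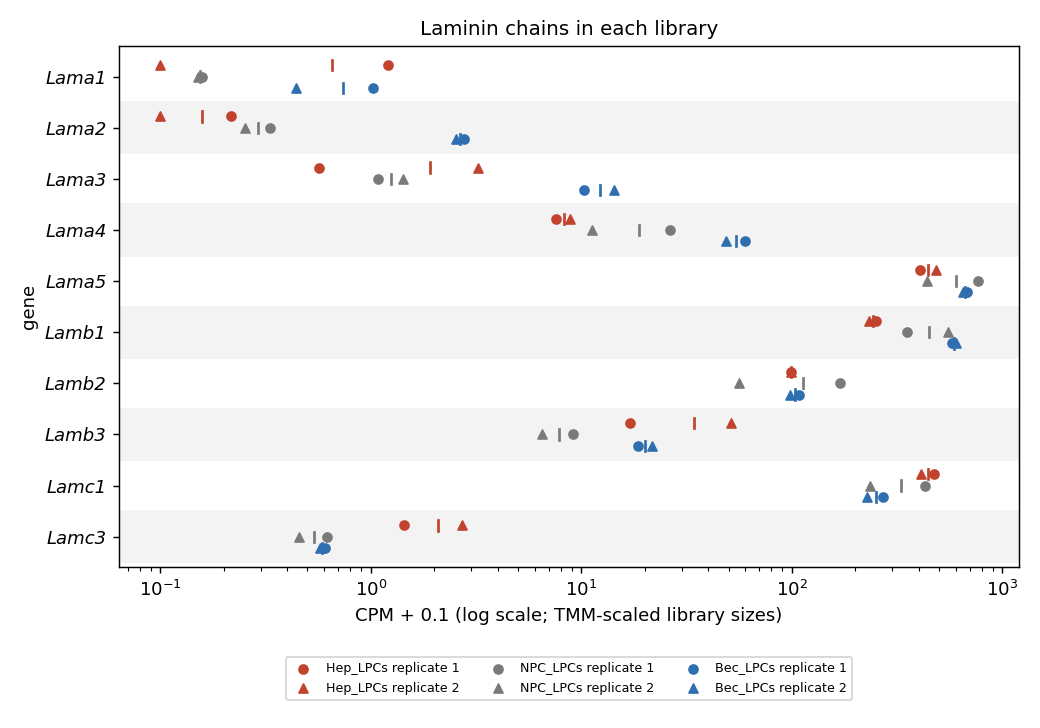
Level of 10 laminin chains in each library, as CPM on TMM-scaled library sizes plus 0.1 on a log axis; circles are replicate 1, triangles replicate 2, and short lines group means. Lama5, Lamb1 and Lamc1 lie at the right in all groups, and Lama2, Lama3 and Lama4 are highest in Bec_LPCs.

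**Figure D4:**
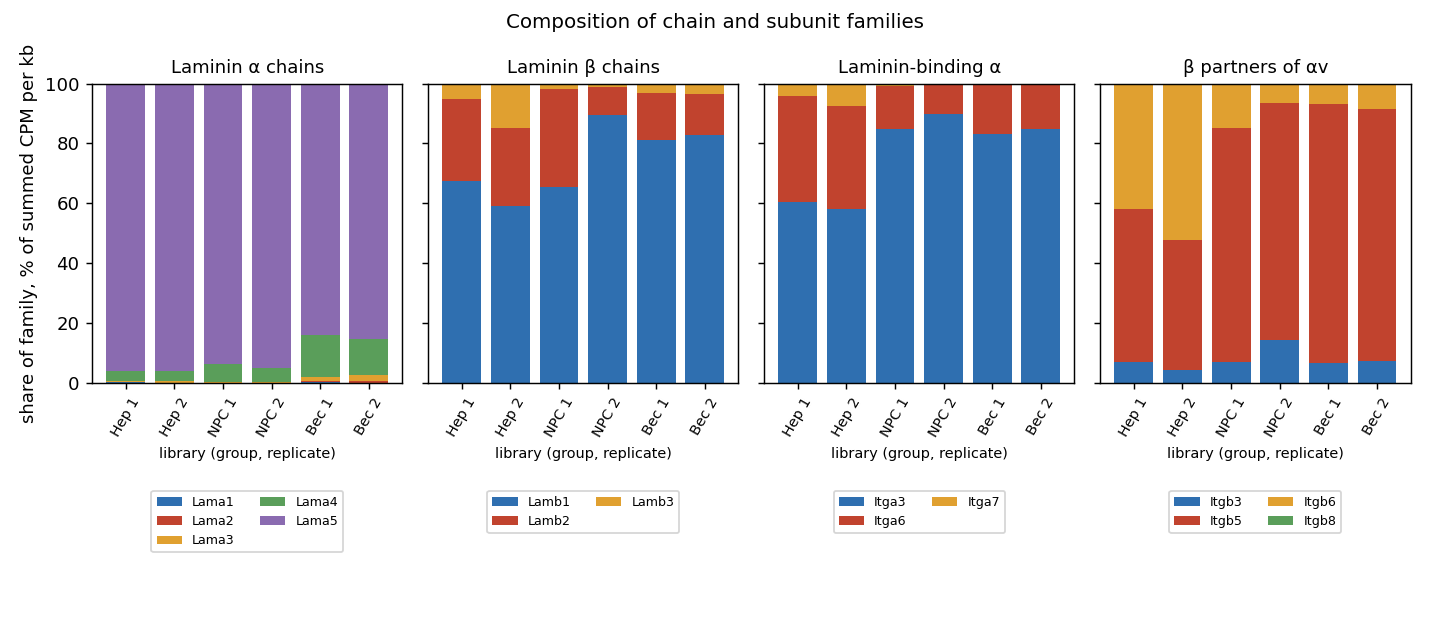
Share of each chain or subunit in its family (laminin alpha and beta chains, laminin-binding alpha subunits and the partners of alphav), in percent of the family's summed CPM per kilobase, in each library. The Hep_LPCs bars hold more Itga6 (35.4% and 34.5%) and more Itgb6 (41.8% and 52.3%) than the other 4, and the Bec_LPCs bars hold more Lama4 (13.97% and 12.1%).

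Replicates of NPC_LPCs were less alike than those of the other groups in these genes. Among the 19 members with a mean of at least 10 CPM, the median fold between replicates was 1.93 in NPC_LPCs, 1.26 in Hep_LPCs and 1.07 in Bec_LPCs. In NPC_LPCs 14 of the 19 differed by more than 1.5-fold, Itga7 the most (4.64-fold), against 5 in Hep_LPCs and none in Bec_LPCs. These folds were not computed over all genes, so the spread may not be particular to these members. Together the integrin subunits took 0.600% and 0.640% of all counts in Bec_LPCs, 0.251% and 0.503% in NPC_LPCs, and 0.241% and 0.234% in Hep_LPCs. The laminin chains took 0.193% and 0.187%, 0.175% and 0.126%, and 0.125% and 0.132%.

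Genes that act with integrins inside the cell were taken from a list of 29 focal adhesion and integrin activation genes, of which 28 were tested. Bec_LPCs against Hep_LPCs had 6 higher and 4 lower, Bec_LPCs against NPC_LPCs 1 higher and 4 lower, and Hep_LPCs against NPC_LPCs none higher and 1 lower, with median log2 fold changes of 0.16, -0.15 and -0.34. The shares called were 35.7%, 17.9% and 3.57%, beside 33.4%, 11.3% and 0.795% of all genes tested. Tns1, tensin 1, which links integrin tails to actin, was at 1223 and 1203 CPM in Bec_LPCs, 1063 and 1008 CPM in NPC_LPCs, and 30.1 and 37.1 CPM in Hep_LPCs. It was lower in Hep_LPCs than in NPC_LPCs by -4.97 ± 0.29 (adjusted p = 0.0170), and this call was lost without either Hep_LPCs library. Tns2, a relative, was low in another group, at 22.7 and 23.7 CPM in Bec_LPCs and between 112 and 162 CPM in the other 4 libraries, and was lower in Bec_LPCs than in NPC_LPCs by -2.40 ± 0.19 (adjusted p = 0.00308). Fermt1, the kindlin of epithelia, was higher in Bec_LPCs than in NPC_LPCs by 1.32 ± 0.17 (adjusted p = 0.0118). Ilk, integrin-linked kinase, was called lower in Bec_LPCs in both comparisons (2.68 ± 0.812 CPM against 172 ± 71.0 in NPC_LPCs and 143 ± 23.9 in Hep_LPCs), but 98.7% of its exonic length is shared with Rrp8 and Taf10, so its counts are uncertain. None of the 5 tested hemidesmosome and tetraspanin partners and none of the 4 other laminin receptors was called by edgeR in any comparison. In Hep_LPCs against NPC_LPCs, Bec_LPCs against NPC_LPCs and Bec_LPCs against Hep_LPCs, 22.2%, 31.5% and 47.3% of all genes had an unadjusted p under 0.05. In the same order, 1, 2 and 1 of the 5 did, and 1, 1 and 2 of the 4. DESeq2 made 3 calls in the first list (Cd9, Plec and Dst) and 2 in the second (Dag1 and Bcam), and limma-voom 0.

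Of the 14 other basement membrane genes, 4 were higher and 1 lower in Bec_LPCs against Hep_LPCs (median log2 fold change 1.41), which is 35.7% beside 33.4% of all genes. In Bec_LPCs against NPC_LPCs edgeR called none of the 14 (median 0.33), beside 11.3% of all genes. At an unadjusted p under 0.05 stood 4 of the 14, where 31.5% of all genes did. DESeq2 called 3 (Col18a1, Nid1 and Nid2) and limma-voom 0. Col4a3, Col4a4 and Col4a6, which enter both medians of Bec_LPCs, had both libraries over the filter's minimum in Bec_LPCs alone, so that they tended to differ by the filter itself. In Hep_LPCs against NPC_LPCs 1 of 12 was lower (8.33%, beside 0.795% of all genes). The median was -1.12, and DESeq2 called 4 and limma-voom 0. Hspg2, perlecan, was at 997 and 1081 CPM in Bec_LPCs, 761 and 1102 CPM in NPC_LPCs, and 162 and 202 CPM in Hep_LPCs. Hep_LPCs were lower than NPC_LPCs by -2.38 ± 0.32 (adjusted p = 0.0472), a call lost without either Hep_LPCs library and without NPC_LPCs replicate 2, and Bec_LPCs were higher than Hep_LPCs by 2.52 ± 0.25 (adjusted p = 0.00303; 2.69 without Hep_LPCs replicate 2). Col4a1, a collagen IV chain, was also higher in Bec_LPCs than in Hep_LPCs, by 1.79 ± 0.41 (adjusted p = 0.0232; lost without Hep_LPCs replicate 1), while Nid2, a nidogen that bridges laminin and collagen IV, was lower by -1.54 ± 0.39 (adjusted p = 0.0316; lost without Hep_LPCs replicate 2 and with the replicate block). Both calls were lost without either Bec_LPCs library. Of the 20 other integrin ligands, 6 of 18 tested were higher in Bec_LPCs than in Hep_LPCs (33.3%, beside 33.4% of all genes), 2 higher and 1 lower than in NPC_LPCs (16.7%, beside 11.3%), and 2 of 16 were lower in Hep_LPCs than in NPC_LPCs (12.5%, beside 0.795%). Those 2 were Tnc and Fn1, fibronectin, and neither call was made without one of the Hep_LPCs libraries. Among the 6 higher in Bec_LPCs than in Hep_LPCs were Col1a2 and Col3a1, with 0 reads in Hep_LPCs. Both libraries of these genes were over the filter's minimum in Bec_LPCs alone, so that they tended to differ by the filter itself.

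Over the 6 libraries, Itgb6 was most alike in log2(CPM + 1) to Slc3a2 (Pearson r = 0.997), Pttg1ip, Adi1, Plk3 and Fra10ac1 (0.991 to 0.994) among 9777 genes with at least 10 CPM in 2 libraries. The points are 6 libraries in 3 groups and share depth and group, so these values describe and carry no test.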

How the data were processed

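Per the labels' protocols, a stranded poly(A) kit and paired-end reads were used. The submitters' processing notes name the build mm10 and the tools HTSeq, HISAT2, Trimmomatic, DESeq and Cufflinks; no source used here gives versions, roles, annotation or strand setting. As deposited by the authors, the tables hold counts per gene symbol for each library and, for NPC_LPCs and Hep_LPCs, also FPKM. The Bec_LPCs tables have 21834 rows, of which 14 have no name (44 and 41 reads, 0.000191% and 0.000181%), and the others 21878. Older symbols were updated with the RefSeq gene table (16 for Bec_LPCs, 843 for the other groups), and 20573 were then shared, with 95.3% to 99.4% of the counts.

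After filterByExpr and TMM scaling, a two-sided, robust quasi-likelihood test (edgeR 4.0.16, limma 3.58.1, R 4.3.3) was adjusted by Benjamini-Hochberg over all genes tested. Hep_LPCs and NPC_LPCs were fitted on their 4 libraries, and Bec_LPCs with each on all 6. The SE was taken as |log2 fold change| over the root of F. Levels are CPM scaled as in the larger fit, and lengths are exon unions of GENCODE M21. A floor of 3 reads was 0.127 to 0.178 CPM, and bounds and intervals cover counting error only. Alternatives comprised limma-voom, DESeq2's Wald test (1.42.0) and its size factors, no filter, scaling by library size alone, the replicate block, protein-coding genes overlapping others by at most 25%, a fit of other groups, omission of each library, and limma on log2(FPKM + 1). Scripts were tested on simulated data. Full statistics go to called members, to up to 6 further members by smallest adjusted p and to the leading subunit of each role, and from each other list up to 4 genes are named. Values of 1 member are not reported here, though the counts of members include it. Members and lists were chosen with earlier results of these data known.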

Additional observations from a re-analysis of the deposited data

How the results depend on the processing

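The number of members called in Hep_LPCs against NPC_LPCs was 0 with edgeR and 1 without a low-count filter, 7 with DESeq2, 1 with the replicate block and 5 with all 6 libraries in the fit, and ran from 0 to 4 with each library left out. In Bec_LPCs against NPC_LPCs it was 5, and 8 with DESeq2, 8 with limma-voom, 2 with the replicate block and 8 with only the 4 libraries of those groups, and ran from 0 to 7 with each library left out. In Bec_LPCs against Hep_LPCs it was 14, ran from 0 to 16 with each library left out and stayed between 13 and 17 under every other setting run. Leaving out a library takes away samples, and the cause of the other changes was not tested. The shares of all genes called under the alternative settings were not recorded, so these counts have no such share beside them. All 19 calls of members kept their direction in each of 14 settings. The replicate numbers did not pair the samples: deviations of same-numbered libraries correlated at 0.13 for Bec_LPCs and NPC_LPCs, -0.07 for Bec_LPCs and Hep_LPCs and -0.04 for NPC_LPCs and Hep_LPCs across genes.

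No called result reversed. Log2 fold changes that were not called, most of them near 0 but also Itgb7 (-1.58) and Itga7 (-1.24) in Bec_LPCs against NPC_LPCs and Lamb3 (-0.77) in Bec_LPCs against Hep_LPCs, turned sign with a library left out, with these ranges over the libraries: in Hep_LPCs against NPC_LPCs Bcam -0.37 to 0.067, Itga1 -0.17 to 0.31, Itga10 -0.59 to 0.71, Itgb2 -0.995 to 0.57, Lama3 -1.31 to 1.44, Lama5 -0.78 to 0.0043, Lamb2 -0.77 to 0.80, Sgce -0.69 to 0.99; in Bec_LPCs against NPC_LPCs Itga1 -0.26 to 0.21, Itga10 -0.24 to 1.03, Itga5 -0.65 to 0.34, Itga7 -1.97 to 0.20, Itgb1 -0.28 to 1.22, Itgb2 -1.03 to 0.51, Itgb7 -4.47 to 2.96, Lama5 -0.20 to 0.56, Lamb2 -0.71 to 0.83, Lamc1 -0.77 to 0.049, Lamc3 -0.087 to 0.41, Sgce -0.84 to 0.33; in Bec_LPCs against Hep_LPCs Itga1 -0.31 to 0.14, Itga4 -0.093 to 1.14, Itga6 -0.42 to 0.14, Itgb2 -0.33 to 0.34, Itgb3 -0.13 to 0.011, Lama1 -0.80 to 6.70, Lamb2 -0.021 to 0.13, Lamb3 -1.36 to 0.25, Sgce -1.23 to 0.32. In Hep_LPCs against NPC_LPCs, Itga10 was 0.048 with limma-voom, 0.021 with the block and 0.0039 on FPKM, Itga2b 0.012 on FPKM, and Lamb2 0.0087, 0.0050 and 0.057. With library size alone, Itga1 was 0.14, Itgb5 0.025 and Lamb2 0.030 in Bec_LPCs against NPC_LPCs, and Itga1 0.074, Itga6 0.011, Itgb2 0.15 and Itgb3 0.12 in Bec_LPCs against Hep_LPCs. Lamb2 was 0.083 with limma-voom and 0.0042 with the block in Bec_LPCs against NPC_LPCs, and Itgb2 0.069 with the block in Bec_LPCs against Hep_LPCs. The 2 libraries in each group and the low counts of 17 members, under 10 CPM in every library, limit these results.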
